A study of Mus musculus with 42 samples.

Results

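The Ly49 receptor family is represented here by 9 genes, Klra1, Klra3, Klra4, Klra5, Klra6, Klra7, Klra8, Klra9 and Klra10, which were taken by name from the 54353 genes shared by all bulk RNA-Seq files. They encode Ly49A, Ly49C, Ly49D, Ly49E, Ly49F, Ly49G2, Ly49H, Ly49I and Ly49J. In the single-cell data 7 of the 9 genes had values, among 35237 genes, and Klra6 and Klra9 were not analysed there. The study followed uterine tissue-resident NK cells (trNK) of wild-type C57BL/6 female mice from the virgin uterus through decidualization, the remodelling of the uterine lining after implantation. Bulk libraries came from trNK sorted as CD45+NK1.1+NKp46+CD49a+CXCR6- cells in virgin mice and at gestation day (gd) 6.5 and gd 8.5. The next set divided gd 8.5 trNK by CD55 and 4-1BB into CB_low, CB_int and CB_hi, which correspond to virginal trNK (trNK-V), differentiating trNK (trNK-D) and terminally differentiated trNK (trNK-T). Another set held NK1.1+ cells after 3 days of culture of trNK without IL-21, with IL-21 at 20 ng/mL, or with IL-21 and the STAT3 inhibitor Stattic (iSTAT3). The last set cultured trNK taken at gd 6.5 in IL-15 with or without IL-21 and sampled them at 0, 6, 24 and 72 h. The paper describes the cells of both culture sets as trNK-V sorted at gd 6.5, and its methods include IL-15 in the culture medium. Each of these 17 groups had 2 libraries, 34 in all. All mice carried unmodified alleles, so that every group shares the C57BL/6 Ly49 haplotype. The labels give neither the number of mice per library nor whether 2 libraries came from separate mice, and p-values measure only the spread between these libraries.

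Ly49 proteins are C-type lectin-like receptors of mouse NK cells that bind MHC class I molecules and related ligands, and they do in the mouse what the killer cell immunoglobulin-like receptors do in humans. Inhibitory members carry a tyrosine-based motif in the cytoplasmic tail that recruits the phosphatase SHP-1, encoded by Ptpn6. Activating members lack it and signal through the adaptors DAP12 and DAP10, encoded by Tyrobp and Hcst. Each NK cell is known to switch on only some of the family's genes, so that NK cells form a mixed repertoire, and engagement of self MHC class I during development tunes how readily they respond.

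The division into inhibitory and activating members is written in the first codons of the genes. The first 30 coding bases of each member are given 5′ to 3′ on the coding strand, with the eighth codon in capitals because the tyrosine of the inhibitory motif sits there. All lie on the minus strand of chromosome 6 in build GRCm38 (mm10), in the NK gene complex.
Klra1 (Ly49A, chr6:130380633-130380662): atgagtgagcaggaggtcactTATtcaatg
Klra3 (Ly49C, chr6:130335770-130335799): atgagtgagccagaggtcactTACtcaact
Klra4 (Ly49D, chr6:130065273-130065302): atgactgaacaggaagacactTTCtcagct
Klra5 (Ly49E, chr6:129911432-129911461): atgagtgaaccagaggtcactTACtcaact
Klra6 (Ly49F, chr6:130025190-130025219): atgagtgagccggaggtcactTACtcaact
Klra7 (Ly49G2, chr6:130231588-130231617): atgagtgagcaggaggtcactTACtcaact
Klra8 (Ly49H, chr6:130128131-130128160): atgagtgagcaggaggtcactTTCccaact
Klra9 (Ly49I, chr6:130191272-130191301): atgaatgagccggaggtcactTACtcaact
Klra10 (Ly49J, chr6:130281893-130281922): atgagtgagctggaggtcactTACtcaact
The capitals spell a tyrosine codon, TAT or TAC, in 7 members and the phenylalanine codon TTC in 2, Klra4 and Klra8. Those are the activating receptors Ly49D and Ly49H.

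The same resemblance limits what short reads can tell apart. Over the 36 pairs of members, the coding sequences were 77.6% to 96.9% identical, with a median of 84.2%, and Klra9 and Klra10 were the closest pair. Of all 50-base windows in the annotated transcripts, 39.8% of those in Klra10, 33.1% in Klra8, 31.5% in Klra9 and 20.7% in Klra3 also occurred in another Klra gene. With 100-base windows the share was highest in Klra8, at 14.4%, and at 150 bases, the length of 1 read of the first bulk sets, only Klra8 kept shared windows, 6.03%, all of them with the pseudogene Klra14-ps. Klra1, Klra4, Klra5 and Klra6 shared less than the others, between 0.656% and 4.35% of 50-base windows. Klra7 shared 12.3% of its 50-base windows, all with the pseudogene Klra13-ps. How reads that matched several genes were counted is not given in the sources used here. Values of Klra3, Klra7, Klra8, Klra9 and Klra10 may thus hold reads of a neighbour.

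The libraries held between 11862089 and 66468883 counted reads. The file of virgin replicate 1 listed 55573 genes and each of the others 54446, and gene lengths were the same in 33 of the 34 files. Levels below are RPKM, which scale read counts by gene length and library depth, and fold changes are log2 values ± standard error (SE) from edgeR's quasi-likelihood test with Benjamini-Hochberg adjustment over all genes of an experiment whose RPKM exceeded 10 in both libraries of a group. A gene was called at an adjusted p below 0.05 and a change above 2-fold. The NK markers Ncr1 and Klrb1c were measured in every library, at 46.8 RPKM or more for Ncr1 and 95.5 or more for Klrb1c. Among markers of other cells, Ms4a1 of B cells was at 0 in all 34 libraries and Cd3e of T cells did not exceed 6.42 RPKM, while the immunoglobulin gene Ighm reached 465 RPKM, Trbc1 of the T cell list 1267, Lyz2 of macrophages 303 and Hba-a1 of erythrocytes 493.

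Klra7, which encodes the inhibitory receptor Ly49G2, had the highest mean RPKM of the 9 in virgin trNK, with 773 and 1042 RPKM in the 2 libraries. It ranked 64th of all genes by mean RPKM and took 33.4% of the family's summed RPKM. The activating Klra4 and Klra8 followed, at 584 and 474 RPKM for Klra4 and 573 and 459 RPKM for Klra8. Their libraries interleave, so that these neighbours in the order do not differ beyond their spread. Klra3 and Klra9, for the H-2K-binding receptors Ly49C and Ly49I, came next with overlapping values of 379.5 and 185 RPKM for Klra3 and 303 and 225 RPKM for Klra9. Klra1 stood at 78.9 and 127 RPKM, below both. Klra6, Klra5 and Klra10 were lowest, at 65.4 and 30.3 RPKM for Klra6, 26.5 and 58 RPKM for Klra5 and 28.6 and 19.8 RPKM for Klra10, with overlapping libraries between each pair of neighbours. Within a group, the 2 libraries differed by a median of 0.13 to 0.90 on the log2 scale over the members, depending on the group. The widest gap was 2.94, for Klra6 in trNK-V.

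The sorted subsets answer how the family changes as trNK acquire CD55 and 4-1BB. Ly49 transcripts were lower in trNK-T than in trNK-V: 6 of the 8 members tested passed the test as lower and none as higher, where 13.1% of all 4683 genes tested were called lower. The fall included both activating genes and 4 inhibitory ones. The median log2 fold change was -2.20 for the 8 members and -0.01 for all genes tested, and the summed RPKM of the 9 genes ran from 3357 to 4234 in trNK-V and from 1134 to 1215 in trNK-T. In bulk libraries, fewer cells that carry a receptor and less RNA per cell cannot be told apart.

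Among the activating members, Klra4 measured 684 and 1129.7 RPKM in the trNK-V libraries, 316 and 439 in trNK-D and 68.6 and 109 in trNK-T. The groups did not overlap, with trNK-V highest and trNK-T lowest. Klra4 fell by 3.35 on the log2 scale from trNK-V to trNK-T (SE 0.36, adjusted p = 0.00304, edgeR's quasi-likelihood test), the largest change of the 8 members tested. Klra8, which encodes the receptor for a mouse cytomegalovirus protein, measured 769 and 1256 RPKM in trNK-V, 585 and 468 in trNK-D and 238 and 244 in trNK-T. Its groups did not overlap either, and its log2 fold change was -2.07 ± 0.26 (adjusted p = 0.00408, edgeR). The pseudogene Klra14-ps, which shares windows with Klra8, was called lower in the same comparison at -2.64 ± 0.22, as was Klra13-ps, which shares windows with Klra7, at -3.09 ± 0.31.

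Of the inhibitory members, Klra9 went from 275 and 433 RPKM in trNK-V through 234 and 206 in trNK-D to 61.6 and 80.4 in trNK-T, a log2 fold change between the ends of -2.32 ± 0.27 (adjusted p = 0.00361, edgeR). Klra3 had close libraries in each group, 246 and 249 RPKM in trNK-V, 169.7 and 157 in trNK-D and 76.4 and 61.8 in trNK-T, and a log2 fold change of -1.84 ± 0.17 (adjusted p = 0.00176, edgeR). Neither gene's groups overlapped. Klra1, for the H-2D-binding receptor Ly49A, measured 207 and 87.8 RPKM in trNK-V, 64.2 and 32.8 in trNK-D and 27.1 and 28.4 in trNK-T. Klra10, for the receptor Ly49J, measured 43.9 and 70.9 RPKM in trNK-V, 22 and 26.2 in trNK-D and 11.2 and 4.51 in trNK-T. Both were called lower in trNK-T than in trNK-V, with log2 fold changes of -2.40 ± 0.46 for Klra1 (adjusted p = 0.0118, edgeR) and -2.86 ± 0.52 for Klra10 (adjusted p = 0.00967, edgeR). These were the calls that did not survive every omission of a library: Klra1 and Klra10 were lost without trNK-T replicate 2, which left 4 calls where 7.59% of all genes were called in either direction, and 1 of them was lost without trNK-V replicate 2 or trNK-T replicate 1, which left 5 where 11% and 17% were.

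The smallest fold changes belonged to Klra7 and Klra5. Klra7 measured 1050.4 and 833 RPKM in trNK-V, 969 and 798 in trNK-D and 596 and 562 in trNK-T, where both libraries lay below every other. Its log2 fold change of -0.70 ± 0.18 between trNK-T and trNK-V passed the test for p (adjusted p = 0.0265, edgeR) but stayed under 2-fold and was not called. Klra5, for the receptor Ly49E known from fetal NK cells, measured 77.1 and 142 RPKM in trNK-V, 85.5 and 138 in trNK-D and 47.9 and 119.7 in trNK-T, so that all groups overlapped and the log2 fold change was -0.39 ± 0.49 (adjusted p = 0.554, edgeR). Klra6 did not reach the RPKM limit in both libraries of any subset. It measured 4.18 and 32.1 RPKM in trNK-V and 7.79 and 5.06 in trNK-T, and where edgeR's own filter let it in, its log2 fold change was -1.31 ± 0.93 (adjusted p = 0.408). Without trNK-V replicate 1 it passed the RPKM limit only through the 1 trNK-V library left, where it is high, and its call there is not read as a result. The family's composition shifted accordingly: Klra7 took 24.8% of the summed RPKM in trNK-V and 49.3% in trNK-T, while Klra4 took 23.9% and 7.58% and Klra5 2.89% and 7.13%. These shares are descriptions of group means and were not tested.

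**Figure D1:**
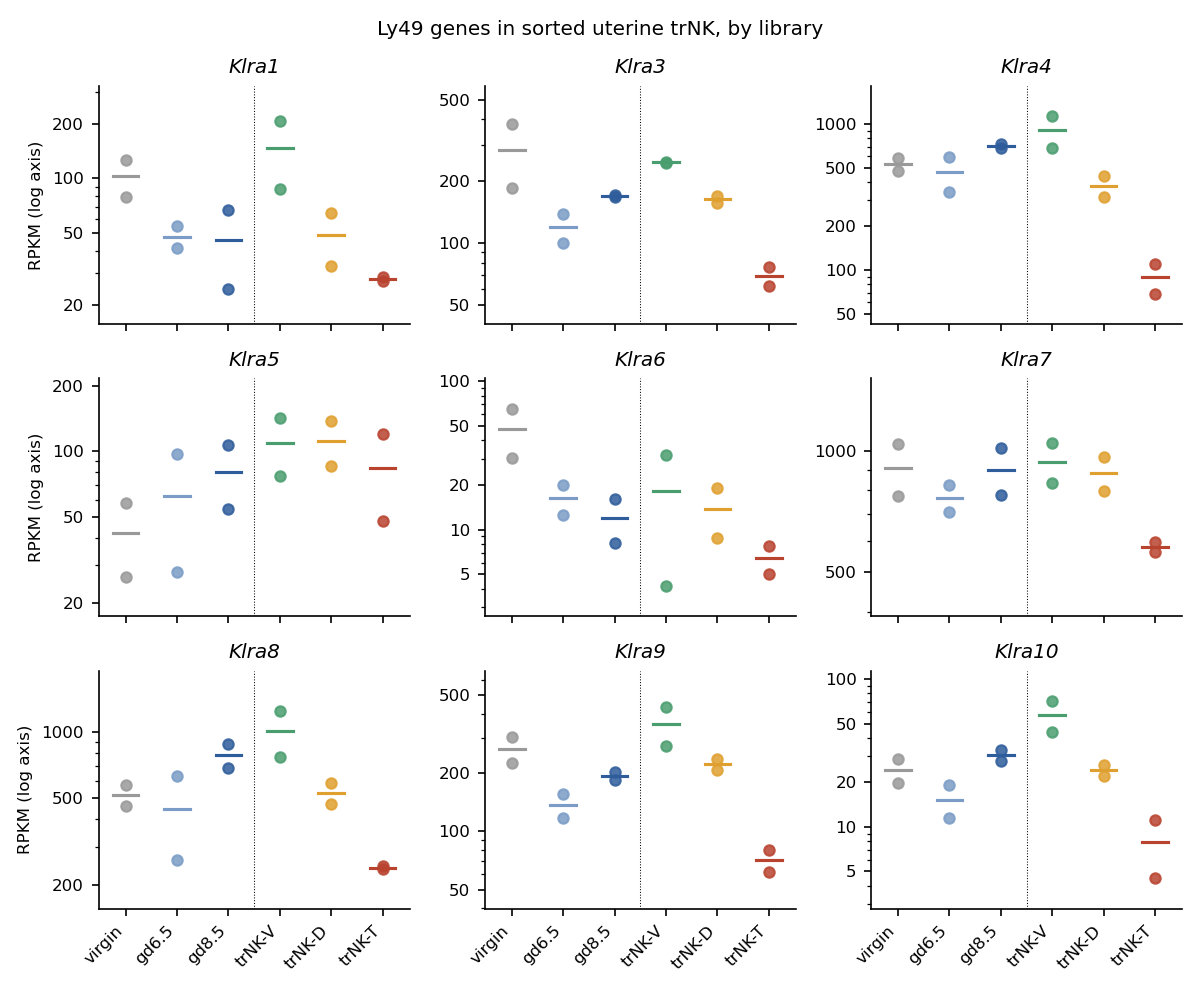
RPKM (log axis) of each Ly49 gene in the sorted trNK libraries; points are the 2 libraries of a group, bars their mean, and the dotted line divides the gestation set from the CD55 and 4-1BB subsets. Klra4 ran from 684 and 1129.7 RPKM in trNK-V to 68.6 and 109 in trNK-T, whereas the groups of Klra5 overlapped throughout.

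By group means, trNK-D lay between the other subsets for every member but Klra5. That gene had 112 RPKM in trNK-D, 110 in trNK-V and 83.8 in trNK-T. In trNK-D against trNK-V, 0 of 8 members were called by edgeR, where 0.32% of all genes were called in either direction. In all, 7 of the 8 had a value below 0, with a median of -0.81 against 0.01 for all genes, and 6 had an unadjusted p under 0.05, as did 939 of 4683 genes. DESeq2 called 2 members where it called 3.99% of all genes, and limma called 0 where it called 0.683%. Both libraries of trNK-D lay below both of trNK-V for Klra1, Klra3, Klra4, Klra8, Klra9 and Klra10. The share of all genes separated in this way was not counted, so this list is not read as a result about the members. In trNK-T against trNK-D, Klra3, Klra4 and Klra9 were called lower, 3 of 8 where 1.41% of all genes were, with log2 fold changes of -1.25 ± 0.17, -2.10 ± 0.35 and -1.64 ± 0.26 (adjusted p = 0.0266, 0.0456 and 0.0446, edgeR). Those calls were fragile, since none held when any 1 of the 4 libraries, trNK-D replicate 1 or 2 or trNK-T replicate 1 or 2, was omitted. Each such fit leaves 1 library in a group, and fewer genes of any kind were called in it. Some other genes were still called in at least 1 of these fits, and why the members' calls were lost was not tested. These 3 comparisons share libraries with each other, so that a library that stands apart touches more than 1 of them.

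The fall of Ly49 genes ran beside that of their neighbours in the NK gene complex. From a list of 16 other genes of the complex, 13 were tested in trNK-T against trNK-V and 10 were called lower, among them Klrc1 and Klrc2 of the NKG2 family (log2 fold changes -3.77 ± 0.19 and -4.13 ± 0.24), their partner Klrd1, which encodes CD94 (-1.67 ± 0.29), and Klrk1, which encodes NKG2D (-2.51 ± 0.26). The list's median was -2.51. Klrg1, an inhibitory receptor for cadherins, was the 1 gene of the list called higher, at 1.92 ± 0.17. Klrb1b had a value of 0.00 ± 0.30.

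Of the genes that carry Ly49 signals, 6 of 14 tested were called lower in trNK-T and 0 higher. Hcst, the adaptor DAP10 of activating Ly49, fell by 1.92 (SE 0.27, adjusted p = 0.00506, edgeR), while Tyrobp, the adaptor DAP12, had a value of -0.51 ± 0.25 (adjusted p = 0.144). Ptpn6, the phosphatase of inhibitory Ly49, fell by 1.19 (SE 0.19), Ptpn11, which encodes the related phosphatase SHP-2, stayed below 10 RPKM and was not tested, and Inpp5d, Lat, Lck and Fyn were also called lower, the first encoding the phosphatase SHIP-1 and the others early kinases and a scaffold of receptor signalling. Of the MHC class I ligands, H2-K1 was called lower at -1.21 ± 0.22, and H2-D1 and B2m were at -0.87 ± 0.18 and -0.73 ± 0.22, under 2-fold. Among 10 transcription regulators of NK cells tested, Tcf7, Tbx21, Tox and Ets1 were called lower, and Tcf7, which is known to act on Ly49 gene activation, fell by 4.72 (SE 0.87). Eomes, which defines the trNK lineage beside CD49a, was at -0.18 ± 0.16.

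Marker sums of trNK and of other cells also differed between the subsets. The 4 trNK markers summed to 1379 and 1388 RPKM in the trNK-V libraries, 979 and 1173 in trNK-D and 644 and 799 in trNK-T. Klrb1c of that list was called lower in trNK-T than in trNK-V. Over the 7 macrophage markers the summed RPKM was 31.6 and 368 in the trNK-V libraries, 246 and 355 in trNK-D and 5.84 and 7.25 in trNK-T. Over the 8 T cell markers it was 1776 to 1838 in trNK-V, 1250.5 to 1503 in trNK-D and 1048 to 1138 in trNK-T, mostly from Trbc1, and Cd3d, Cd3g and Trac were called lower in trNK-T than in trNK-V. Over the 5 B cell markers it was 253 to 298 in trNK-V, 219 to 256 in trNK-D and 169 to 189 in trNK-T, almost wholly from Ighm. Over the 8 markers of conventional NK cells (cNK) it was 104 to 116 in trNK-V, 143 to 260 in trNK-D and 60.8 to 160 in trNK-T. Over the 6 ILC1 markers it was 14.4 and 50.1 in trNK-V, 10.6 and 18.5 in trNK-D and 0.399 and 0.228 in trNK-T, with Cxcr6 the highest of them. The defining markers Ms4a1, Cd8a and Il7r were at 0 in all 6 libraries. Macrophage transcripts were high in trNK-V replicate 2 and in both trNK-D libraries, and in trNK-T against trNK-V without trNK-V replicate 2, Klra1, Klra3, Klra4, Klra8 and Klra9 were still called lower. In the comparisons with trNK-D no such omission was possible, since both of its libraries carried these transcripts. The remaining trNK-V library still had more of them than either trNK-T library, as given above, and the part of these other cells in the differences was not tested.

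**Figure D2:**
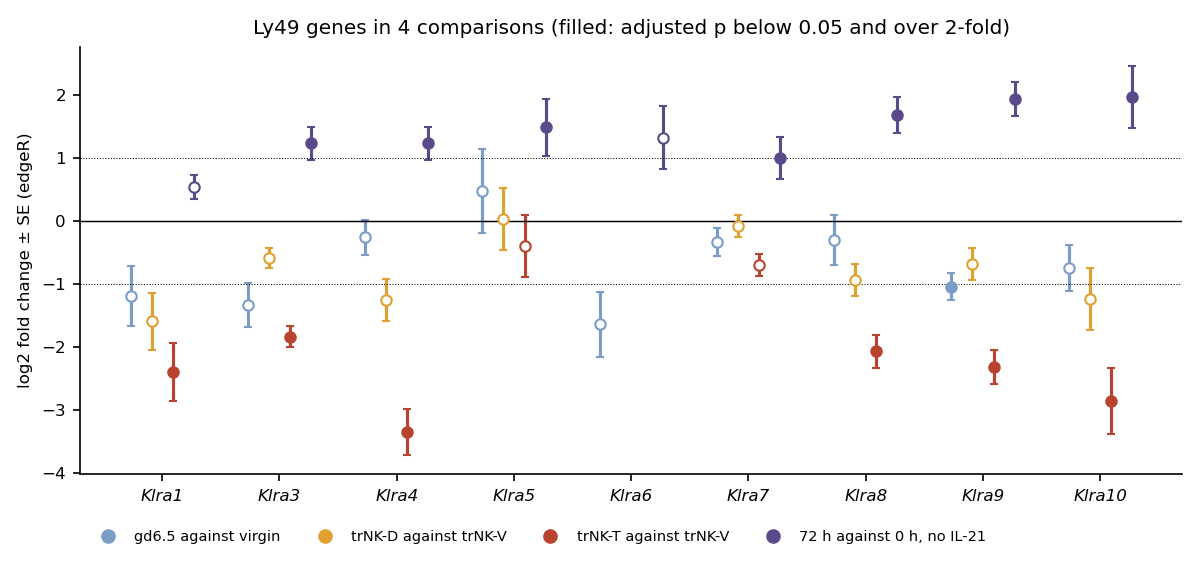
Log2 fold change ± SE from edgeR for each Ly49 gene in 4 comparisons; filled points passed an adjusted p of 0.05 and 2-fold, dotted lines mark 2-fold, and Klra6 was not tested in the subsets. In trNK-T against trNK-V 6 members were called lower, and at 72 h against 0 h of culture 7 were called higher.

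Pregnancy itself was accompanied by smaller differences. In unsplit trNK at gd 6.5 against virgin trNK, 1 of 9 members was called, Klra9, which fell from 303 and 225 RPKM in virgin to 116 and 156 RPKM at gd 6.5, a log2 fold change of -1.05 ± 0.21 (adjusted p = 0.0377, edgeR). The background was 3% of 4504 genes called lower. Klra9 was not called when reads were scaled by total counts alone, where 6.97% of all genes were called in either direction against 6.17% in the main fit. The call was also lost without virgin replicate 1, gd 6.5 replicate 1 or gd 6.5 replicate 2, fits that leave 1 library in a group. In the fits without a gd 6.5 library the calls over all genes were lost too, but in the fit without virgin replicate 1 they were not. The members' median log2 fold change was -0.748 with all libraries. It was -0.51 and -0.744 without virgin replicates 1 and 2, and -0.715 and -1.09 without gd 6.5 replicates 1 and 2. Klra3 went from 379.5 and 185 to 100.3 and 138 RPKM (-1.33 ± 0.34, adjusted p = 0.0577, edgeR) and Klra6 from 65.4 and 30.3 to 12.5 and 20.1 RPKM (-1.64 ± 0.52, adjusted p = 0.0883, edgeR). For both the groups did not overlap, but neither passed the test. Klra1 and Klra10 also had lower values in both gd 6.5 libraries than in both virgin libraries, and Klra4, Klra5, Klra7 and Klra8 overlapped. Here too the share of all genes without overlap was not counted, and the separation is a description only.

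Of the family's adaptors, 1 was called lower in the same comparison. Hcst fell by 1.37 on the log2 scale (SE 0.28, adjusted p = 0.0366, edgeR), and Tyrobp had a value of -0.999 ± 0.18 (adjusted p = 0.0311), just under 2-fold and not called. With Sh2d1a, 2 of 14 signalling genes tested were called lower and 0 higher, while Ptpn6 was at 0.13 ± 0.40. B2m, the light chain that MHC class I needs at the cell surface, was called lower at -1.18 ± 0.23. Of 14 other NK gene complex genes tested, Klrb1f was called lower at -2.47 ± 0.56 and none higher, and 0 of 9 regulators were called.

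At gd 8.5 against virgin, 0 of 9 members were called by edgeR, where 0.422% of all genes were called, and 3 had an unadjusted p under 0.05, as did 638 of 4504 genes. DESeq2 called 1 where it called 3.64% of all genes, and limma called 0 where it called 0.555%. Without virgin replicate 2 the count was 2, Klra3 and Klra6, where 12.2% of all genes were called. Klra4, Klra5, Klra8 and Klra10 had values above 0 here, 0.87 ± 0.67 for Klra5 and 0.27 ± 0.36 for Klra10, with overlapping libraries for these. The activating Klra4 measured 726 and 680.2 RPKM and Klra8 688 and 879 RPKM at gd 8.5, above both virgin libraries for each gene, with log2 fold changes of 0.35 ± 0.28 and 0.54 ± 0.40 that did not pass. Klra6 was lowest relative to virgin, at 8.15 and 16 RPKM (-2.05 ± 0.53, adjusted p = 0.206, edgeR). Between gd 8.5 and gd 6.5 edgeR called no member and no other gene (0% of genes), 2 members and 1071 of 4504 genes had an unadjusted p under 0.05, and 7 of the 9 members had a value above 0. DESeq2 called 0 members there, where it called 4.91% of all genes, and limma called 0, where it called 0%. The comparisons of gd 6.5 and gd 8.5 share the virgin libraries, of which replicate 1 came with a longer gene list than every other file. The part of that difference in these comparisons was not tested. Over the 5 erythrocyte markers, the summed RPKM was 12.8 and 224 in the virgin libraries, 0.237 and 0.3 at gd 6.5 and 0.251 and 844 at gd 8.5. From virgin to gd 6.5 the sums over other lists also differed without overlap, from 46.4 and 103 to 21.6 and 23.2 RPKM for the cNK markers, from 1634 and 1651 to 1061 and 1195 for the T cell markers and from 1222 and 1241 to 710.5 and 741 for the 4 trNK markers, of which Ncr1 was called lower at -1.03 ± 0.15. At gd 8.5 the same sums were 35.2 and 58.2, 1497 and 1507, and 922 and 933 RPKM. The part of these cells and of the erythrocytes in these results was not tested.

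In culture most members were higher at the last time than at the start. At 72 h against 0 h without IL-21, 7 of 9 members were called higher and 0 lower, where 11.2% of 3503 genes were called higher. The median log2 fold change was 1.32 for the members and -0.07 for all genes. The result depends in part on the scaling: with total counts alone the median of all genes was -0.48, the median of the members 0.90, and 3 members, Klra8, Klra9 and Klra10, were called higher, where 26.2% of all genes were called in either direction against 25.2% with TMM scaling.

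Klra9 measured 574 and 578 RPKM at 0 h, 554 and 603 at 6 h, 854 and 614 at 24 h and 1686 and 1602 at 72 h. The 72 h libraries lay above every earlier one, and the log2 fold change against 0 h was 1.94 ± 0.28 (adjusted p = 0.000511, edgeR). The activating Klra8 measured 1043 and 1083 RPKM at 0 h, 889 and 1042 at 6 h, 1496 and 1466 at 24 h and 2296 and 2731 at 72 h, with 1.68 ± 0.29 (adjusted p = 0.00155, edgeR). Klra4, the other activating gene, measured 1565 and 1715 RPKM at 0 h and 2624 and 3083 at 72 h (1.23 ± 0.26, adjusted p = 0.00563, edgeR). Both activating genes thus stood highest at 72 h without overlap of the 2 times.

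Among the inhibitory genes, Klra3 went from 441 and 466 to 756 and 827 RPKM between 0 h and 72 h (1.23 ± 0.26, adjusted p = 0.00572, edgeR) and Klra7 from 2891 and 2822 to 4233 and 4281 RPKM (1.00 ± 0.34, adjusted p = 0.0424, edgeR). Klra7 lay only just above the 2-fold limit. The low members Klra10 and Klra5 were called at 1.97 ± 0.49 and 1.49 ± 0.45 (adjusted p = 0.0117 and 0.0286, edgeR), from 10.3 and 12 to 27.8 and 36.5 RPKM for Klra10 and from 61.6 and 126 to 147 and 238 RPKM for Klra5. Klra6 had a value of 1.32 ± 0.50 (adjusted p = 0.068) and Klra1 of 0.53 ± 0.19 (adjusted p = 0.0561, edgeR), with overlapping libraries for Klra1, 231 and 277 RPKM at 0 h and 285 and 265 at 72 h. Without 72 h replicate 2 the calls fell to 3, Klra8, Klra9 and Klra10, where 25.4% of all genes were called in either direction, and without 0 h replicate 1 to 4, Klra3, Klra4, Klra8 and Klra9, where 16.1% were. At 6 h and at 24 h against 0 h, edgeR called 0 of 9 members, where 0% and 0.2% of all genes were called, and 0 and 1 members had an unadjusted p under 0.05, as did 106 and 385 of 3503 genes. DESeq2 called 0 at both times, where it called 0.171% and 2.28% of all genes. With limma the count was also 0 at both, where it called 0% and 0.343%.

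Some partners of the family also passed the test in that comparison. Tyrobp and Hcst were called higher at 72 h, at 1.63 ± 0.37 and 2.09 ± 0.37, as was Sh2d1a, which encodes the adaptor SAP, 3 of 8 signalling genes tested with 0 lower. Ptpn6 was at -0.47 ± 0.73, and Ptpn11 was again below 10 RPKM. Of the other NK gene complex genes, 9 of 15 tested were called higher, among them Klrd1 (1.44 ± 0.34) and Klrk1 (1.27 ± 0.28), and Klrg1 was called lower at -1.07 ± 0.35. Tcf7, Eomes and Id2 were called higher among 5 regulators tested. Of the markers of other cells, Cd79a, Cd79b and Ms4a1 of B cells and Apoe, C1qb, C1qc, Csf1r and Lyz2 of macrophages were at 0 at both times. Ighm was measured at up to 143 RPKM and Trbc1 at up to 1146. The T cell markers summed to 1626 and 1705 RPKM at 0 h and 1889 and 1222 at 72 h, and the cNK markers to 39.5 and 37.2 at 0 h and 19.9 and 17.1 at 72 h. Their part in the result was not tested. The ILC1 marker Cxcr6 stood at 2.3 and 7.29 RPKM at 0 h and 83.5 and 6.68 at 72 h, so that 1 library carried its difference.

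**Figure D3:**
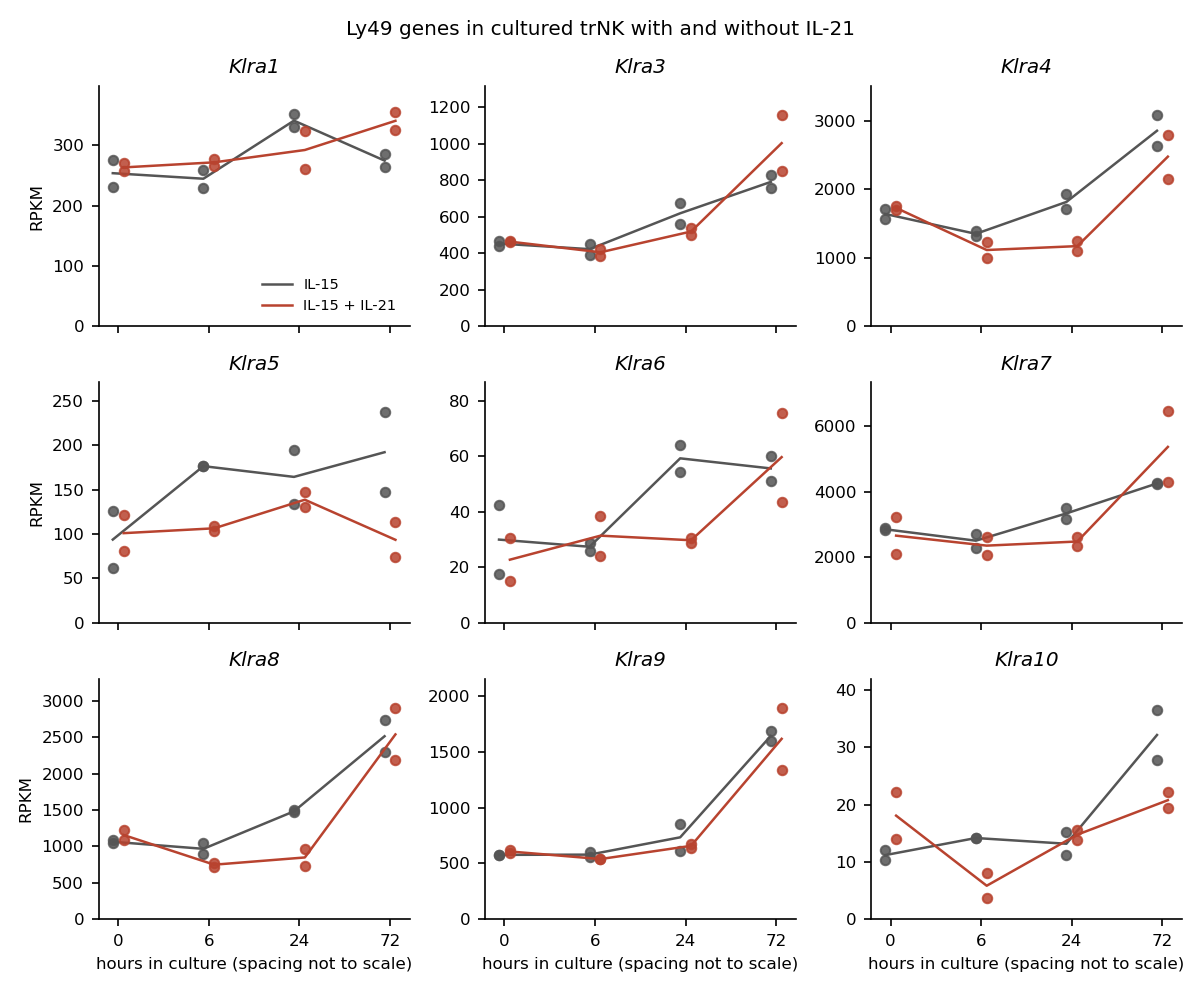
RPKM of each Ly49 gene at 0, 6, 24 and 72 h of culture in IL-15 alone (grey) or with IL-21 (red); points are libraries and lines join the means of 2. Klra9 stood at 574 and 578 RPKM at 0 h and at 1686 and 1602 at 72 h in IL-15 alone, and at 24 h both libraries of Klra8 with IL-21 lay below both without it.

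IL-21, the cytokine whose receptor signals through STAT3, did not move any member past the test at any time. In the time course edgeR called 0 of 9 members at 0 h, 6 h, 24 h and 72 h, where 0%, 1.97%, 1.66% and 8.08% of all genes were called, and 0, 1, 2 and 1 members had an unadjusted p under 0.05, as did 110, 429, 527 and 881 of 3503 genes. DESeq2 called 0 at each time, where it called 0%, 3.63%, 4.17% and 13.6% of all genes. With limma the count was also 0, where it called 0%, 2.43%, 1.63% and 9.93%. At 6 h both IL-21 libraries of Klra10 lay below both others, at means of 5.82 RPKM with and 14.2 without IL-21 (-1.31 ± 0.48, adjusted p = 0.267, edgeR). Klra5 was called lower with IL-21 at 72 h when 72 h replicate 1 or 72 h IL-21 replicate 2 was omitted, 1 of 9 in each case, where 27.2% and 15% of all genes were called, so that this call is not read as a result about Klra5. It stood at 147 and 238 RPKM without and 73.8 and 113 RPKM with IL-21 (-1.09 ± 0.45, adjusted p = 0.161, edgeR). The lowest unadjusted values were at 24 h in the activating genes. Klra8 measured 1496 and 1466 RPKM without and 735 and 959 RPKM with IL-21 (-0.90 ± 0.28, adjusted p = 0.154, edgeR), and Klra4 1705 and 1925 RPKM without and 1103 and 1239 RPKM with it (-0.73 ± 0.26, adjusted p = 0.206, edgeR). Neither pair of groups overlapped at 24 h. The T cell markers summed to 1556 and 1725 RPKM without and 1142 and 1174 with IL-21 at that time, the trNK markers to 1396 and 1503 without and 866 and 898 with it, and the B cell markers to 152 and 157 without and 79.1 and 91.4 with it, and their part in these values was not tested. The adaptors had values of -1.18 ± 0.36 for Tyrobp (adjusted p = 0.155, edgeR) and -1.41 ± 0.36 for Hcst (adjusted p = 0.0829, edgeR) at 24 h, with the IL-21 libraries below both others for each gene, and of 0.25 ± 0.36 and 0.16 ± 0.35 at 72 h, and none of 8 signalling genes tested was called at 24 h or 72 h. At 72 h both activating genes overlapped between the conditions, with values of -0.03 ± 0.28 for Klra8 and -0.25 ± 0.26 for Klra4. The difference between the IL-21 effects at 72 h and at 6 h was called for 0 of 9 members by edgeR, where 4.17% of genes were called, and 0 members and 647 of 3503 genes had an unadjusted p under 0.05.

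The 3-day cultures gave the same count. With IL-21 against none, edgeR called 0 of 9 members (0.289% of 4158 genes were called, and 1 member, Klra3, had an unadjusted p under 0.05), with IL-21 and iSTAT3 against IL-21 0 of 9 (2.96% of genes, 2 members at an unadjusted p under 0.05), and with IL-21 and iSTAT3 against none 0 of 9 (4.74% of genes, 0 members). DESeq2 called 1 member, Klra7, with IL-21 and iSTAT3 against IL-21, where it called 10.7% of all genes. It called 0 with IL-21 against none and 0 with IL-21 and iSTAT3 against none, where it called 3.9% and 14% of all genes. With limma the count was 0 in all 3, where it called 0.433%, 2.96% and 6.49% of all genes in the order given for edgeR. Over all genes, 382, 824 and 936 had an unadjusted p under 0.05 by edgeR in the same order. Klra5 had a value of 0.49 ± 0.54 with IL-21 against none here (adjusted p = 0.881, edgeR), with overlapping libraries. Klra3 measured 279 and 194 RPKM without IL-21, 461 and 351 with IL-21 and 129.7 and 214 with IL-21 and iSTAT3. The IL-21 libraries were above both other groups without overlap, at 0.98 ± 0.38 against none and -1.15 ± 0.38 for iSTAT3 against IL-21 (adjusted p = 0.465 and 0.156, edgeR). Klra7 measured 1371 and 1038, 1895 and 1183 and 369 and 749 RPKM in the same order, with iSTAT3 libraries below all others and a value of -1.37 ± 0.44 against IL-21 (adjusted p = 0.149, edgeR). The comparisons share libraries, and the 2 libraries with iSTAT3 differed from each other by a median of 0.90 on the log2 scale over the members, the widest of any group. Marker sums moved with these groups without overlap between IL-21 with and without iSTAT3. The T cell markers summed to 1292 and 1438 RPKM without IL-21, 1007 and 1154 with IL-21 and 600.1 and 625 with iSTAT3, the trNK markers to 966 and 1099, 313 and 367, and 228 and 234 in the same order, and the cNK markers to 45.9 and 62.3, 55.2 and 81.6, and 115 and 115. Their part in these values was not tested.

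Across all 34 libraries, each centred on the mean of its experiment, some members kept closer company than others. The log2 level of Klra8 had a Pearson r of 0.92 with the summed level of the other 8, Klra9 of 0.92, Klra3 of 0.84, Klra10 of 0.81 and Klra4 of 0.78, while Klra7 stood at 0.64, Klra6 at 0.50, Klra1 at 0.49 and Klra5 at 0.18. Klra3, Klra8, Klra9 and Klra10 are also members with many shared windows. Outside the Klra genes, the 5 of 2652 genes with the highest r to the family's summed level were Hcst (0.91), Gm5547 (0.90), Klrd1 (0.89), Gimap9 (0.89) and Ptprc (0.88). These points share libraries, depth and group differences, and the values are descriptions only.

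Single uterine cells sorted as CD45+NK1.1+NKp46+ show where the family is expressed. Cells of virgin and gd 8.5 mice were captured together, no map from cells to mice or stages was used here, and the 15175 cells are treated as 1 sample without a test. After limits of more than 200 and fewer than 2500 genes per cell and less than 10% mitochondrial counts, 8907 cells remained, with a median of 2576 unique molecular identifiers (UMIs). They were clustered without any Klra gene and named from markers. The 1735 virginal-like trNK carried the stage markers Il21r and Tcf7 at 97.5 and 158 CPM, UMIs scaled to equal depth, against 3.10 and 2.07 CPM in the 705 terminal-like trNK, which carried the granzyme gene Gzmd at 12990 CPM against 1142. Eomes stood at 394 and 408 CPM in these 2 classes. Intervals below are exact 95% intervals that cover counting error only.

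The summed CPM of the 7 members was 4286 (4232 to 4342) in virginal-like trNK, 4178 (4085 to 4273) in cNK-like cells and 516 (494 to 540) in terminal-like trNK. B-like cells, which should not express the family and serve as the background, had 509 CPM (454 to 567). Free RNA and cells caught together cannot be told apart as its source, since no doublet was removed. Macrophage-like and stromal-like cells, which should not express it either, had 378 CPM (356 to 401) and 429 CPM (375.5 to 487), and the 90 erythrocyte-like cells had 781 CPM (675.5 to 898). Not every class outside the named NK classes was this low. The 482 cells of an unnamed class led by Mcpt4 had 1895 CPM (1815 to 1979), and the source of that level was not tested. The 327 cells of the unnamed class led by Ace had 516 CPM (470 to 565). These classes differ in depth, so that equal CPM is not an equal number of UMIs per cell: the members had 1997 UMIs in the 705 terminal-like cells, 320 in the 304 B-like, 1083 in the 910 macrophage-like and 235 in the 204 stromal-like cells. By CPM the virginal-like sum was 8.30 times the terminal-like one (7.93 to 8.69). The members had 23519 UMIs in the 1735 virginal-like cells. Terminal-like cells were deeper, so that ratios of CPM between these 2 classes are wider than ratios of UMIs per cell. Other NK genes were also lower by CPM in terminal-like cells, 4.40-fold for Ncr1, 7.01-fold for Klrb1c, 3.62-fold for Hcst and 1.91-fold for Tyrobp. In terminal-like and B-like cells Ncr1 stood at 127 and 116 CPM, Klrb1c at 91 and 129 CPM and Hcst at 63.1 and 60.4 CPM. Tyrobp stood at 1578 and 467 CPM and Eomes at 408 and 69.9 CPM. The low terminal-like value depends on the limits on cells and on the clustering: without the upper limit on genes it was 1166 CPM against 681 CPM in B-like cells, with 3000 variable genes 747 against 500 CPM, with a coarser clustering 1296 against 512 CPM, and with the limits applied to UMIs in place of genes 2935 against 352 CPM. The sum of the class named terminal-like was thus above the B-like one in each of these settings, the last without any class that met the virginal-like rule. Cells were clustered and named anew in each setting, so that the name covers other cells. It held 705 cells in the main setting, 1158 without the upper limit and 1675 with the coarser clustering. Without the upper limit, a trNK-like class of 1834 cells led by Gm8961, a leading gene of the main terminal-like class, had 591 CPM. In the main setting, trNK-like clusters led by Gzmf, by the cell cycle gene Ccna2 and by Gm26917 lay between, at 1929, 2149 and 2599 CPM.

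By member, the activating Klra4 showed the widest ratio of the 6 with a UMI in both classes, 974 CPM in virginal-like and 38.8 CPM in terminal-like trNK, 25.1-fold (21.3 to 29.7), and stood below the B-like background of 125.5 CPM in the latter. Klra3 followed at 345 and 24.1 CPM, 14.4-fold (11.7 to 17.9), and the activating Klra8 at 1849 and 160 CPM, 11.5-fold (10.6 to 12.5). By CPM, though not by UMIs per cell, both also lay below the B-like levels of 38.1 and 189 CPM in terminal-like cells. Klra1 was at 81.7 and 10.6 CPM, 7.70-fold (5.59 to 10.9), beside a B-like level of 9.53 CPM. Klra10 had 124 UMIs in the virginal-like class and no UMI in the terminal-like one, where 0 UMIs allow up to 0.776 CPM on a floor of 3 UMIs over the class, and the exact interval of the ratio began at 23.3-fold.

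Klra7 and Klra5 had the smallest ratios here too. Klra7 stood at 884.5 and 216 CPM, 4.10-fold (3.81 to 4.41), beside a B-like level of 132 CPM. Klra5 stood at 130 and 66.7 CPM, 1.95-fold (1.69 to 2.26), beside a B-like level of 9.53 CPM. It had 713 UMIs in the 1735 virginal-like cells and 258 in the 705 terminal-like cells. Its UMIs per cell thus differed less than its CPM, because the terminal-like cells were deeper. On the log2 scale the terminal-like over virginal-like ratio was -0.96 for Klra5 and -4.65 for Klra4, and the bulk log2 fold change between trNK-T and trNK-V was -0.39 and -3.35. Klra4 had the lowest of these values in bulk and among the members with a UMI in both classes, and Klra5 had the value nearest 0 in either assay. In their sums, cNK-like and ILC1-like cells stood near virginal-like trNK, and Klra4 was at 965 and 1026 CPM in them. Other members differed. Klra1 was higher in cNK-like cells, at 211 CPM (191 to 233), as were Klra3 at 444 and Klra10 at 44.2 CPM. Klra5 was lower there, at 69.3 CPM, and Klra7 was lower in ILC1-like cells, at 574 CPM.

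**Figure D4:**
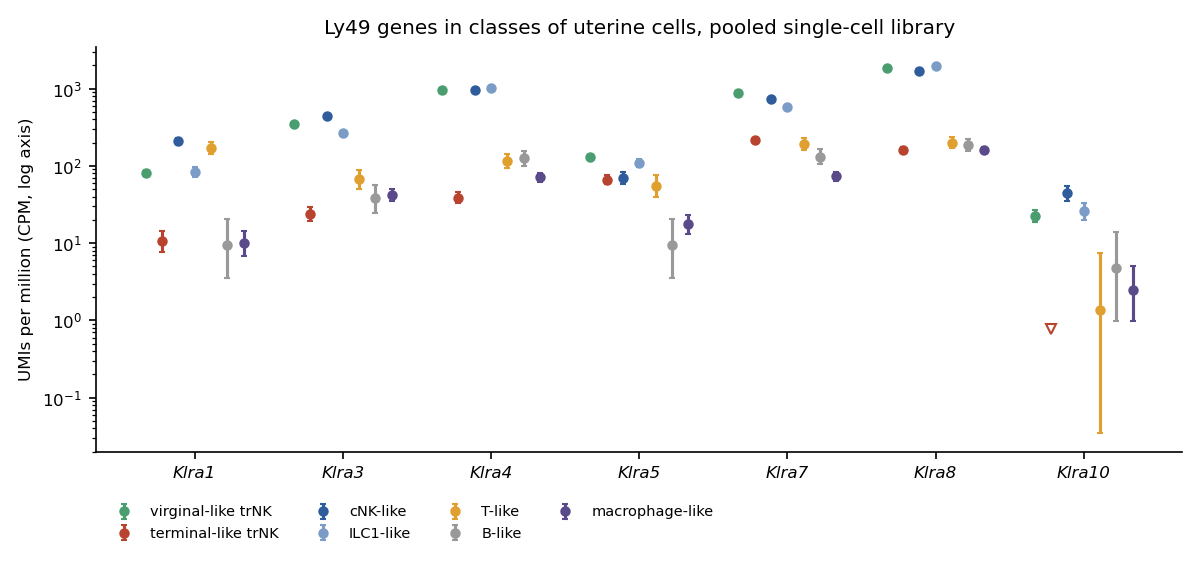
CPM (log axis) of 7 Ly49 genes in 7 classes of cells from the pooled single-cell library; points are sums over the class with exact 95% counting intervals, and the open triangle marks the limit set by 0 UMIs. Klra4 stood at 974 CPM in virginal-like and at 38.8 CPM in terminal-like trNK, below the 125.5 CPM of B-like cells.

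Deep cells show more genes, so the number of members per cell was counted after each cell was thinned to 1000 UMIs and shallower cells were left out. The median depths before thinning were 2855 UMIs in virginal-like, 5709 in terminal-like, 1724 in cNK-like and 1830 in B-like cells, and 68, 1, 40 and 15 cells were left out. At least 1 of the 7 members was seen in 88.4% of virginal-like, 87.3% of cNK-like, 31.7% of terminal-like and 22.8% of B-like cells, and at least 2 were seen in 64.1%, 60.6%, 7.24% and 6.92%. The mean number was 1.91 ± 1.11 (SD over cells) in virginal-like, 1.78 ± 1.08 in cNK-like, 0.41 ± 0.67 in terminal-like and 0.32 ± 0.66 in B-like cells. Without thinning these means were 2.61, 2.15, 1.24 and 0.51. Terminal-like cells thus stood near B-like cells at equal depth and above them at their own, higher depth. The classes named terminal-like in the other settings, which hold other cells, were not as near. After thinning, the share with at least 2 members was 24.4% in them and 6.47% in B-like cells without the upper limit on genes. It was 23.8% and 6.97% with a coarser clustering, 13.1% and 6.64% with 3000 variable genes and 42.9% and 4.09% with limits on UMIs. In the trNK-like class led by Gm8961 without the upper limit it was 9.28%. At 1000 UMIs, Klra8 was seen in 63.0% of virginal-like cells (60.6 to 65.3), Klra4 in 47.8%, Klra7 in 42.4%, Klra3 in 22.7%, Klra5 in 7.44%, Klra1 in 4.98% and Klra10 in 2.28%. In B-like cells the shares were 10.4% for Klra8, 8.65% for Klra4, 7.61% for Klra7, 2.77% for Klra3, 0.692% for Klra5, 1.04% for Klra1 and 0.692% for Klra10.

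**Figure D5:**
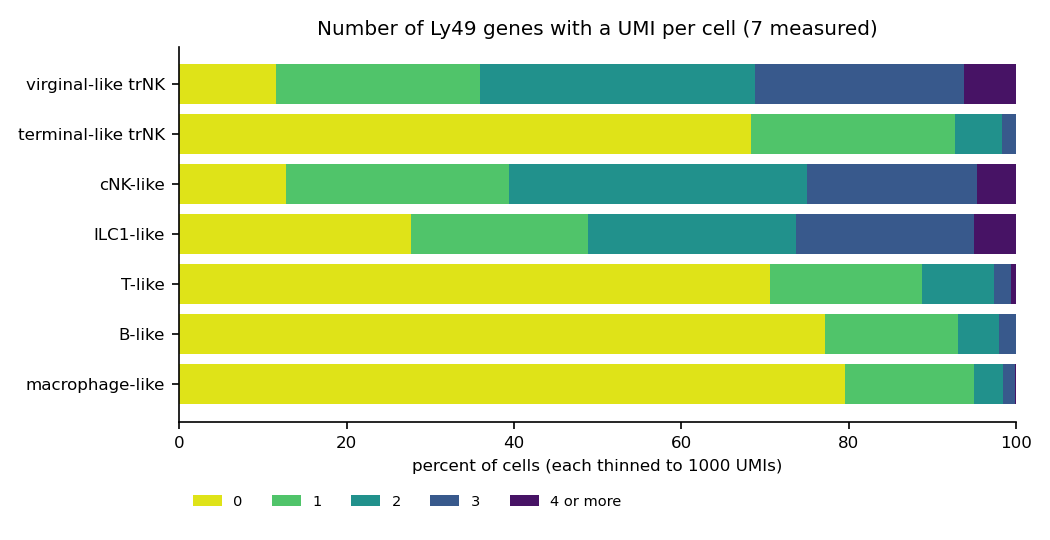
Share of cells by the number of Ly49 genes with a UMI, out of 7 measured, after each cell was thinned to 1000 UMIs; each bar is a class. Cells with none made up 11.6% of virginal-like and 68.3% of terminal-like trNK.

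Within virginal-like trNK the members were spread unevenly over cells. At 1000 UMIs per cell, the variance of the UMI count divided by its mean was 2.83 for Klra8, 2.40 for Klra5, 2.13 for Klra4, 1.95 for Klra1, 1.92 for Klra7 and 1.65 for Klra3, where counting alone gives 1, and 0.98 for the rare Klra10. Ncr1, Eomes and Hcst stood at 1.21, 1.23 and 1.12 and Tyrobp at 1.67. Klra5 combined a low mean, 0.129 UMIs per cell, with cells of up to 10 UMIs. In cNK-like cells the ratio was 3.02 for Klra8 and 2.31 for Klra1. In B-like cells it ran from 0.976 for Klra3 to 1.83 for Klra8 among the members, and was 1.92 for Ncr1. Among the 1667 thinned virginal-like cells, Klra8 was seen in 75.9% of cells with Klra4 and 51.2% of cells without it. For Klra7 the shares of Klra8 were 69.6% and 58.1%, and for Klra3 65.1% and 62.4%. Klra5 was seen in 4.27% of cells with Klra4 and 10.3% of cells without. These shares come from cells of 1 sample and carry no test.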

How the data were processed

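Bulk RNA-Seq counts of sorted or cultured mouse uterine trNK were analysed with a pooled single-cell table. The authors deposited read counts per gene for each bulk library, and their processing notes name HISAT2 2.1.0, Subread featureCounts and mm10, while the methods name RSEM. The deposited single-cell tables hold UMI counts per cell from the BD Rhapsody pipeline. Both hold the same 15175 cells and share 0 genes, and they were joined by cell. The gestation and subset libraries were made with SMART-Seq HT and the time course with another full-length kit, and each of the 4 experiments was fitted separately.

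RPKM was computed from the deposited counts, with the gene lengths in the file of virgin replicate 2 used for all libraries. Genes above 10 RPKM in both libraries of any group were tested with edgeR 4.0.16 (TMM scaling, quasi-likelihood, Benjamini-Hochberg) in R 4.3.3, with all groups of an experiment in 1 fit, which assumes that they vary alike. DESeq2 1.42.0, limma 3.58.1 with voom, other scalings, filters, a replicate block and omission of each library were alternatives. Scaling by total counts alone was added after seeing the data. Replicate numbers came from the labels and were not taken to pair the samples.

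Single cells were clustered with scanpy 1.11.5 on 2000 variable genes without any Klra gene (20 components, 20 neighbours, resolution 0.8). The thresholds for naming clusters were set after the clusters were seen. The ILC1-like cluster kept Eomes at 356 CPM, so that its boundary with virginal-like trNK is uncertain. Scrublet marked 1 of 8907 cells, too few to rely on, and no doublet was removed. The study states its limits on cells for UMIs, where limits on genes were used here: 4338 cells pass the former.

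Sequences were read from GENCODE transcripts and the GRCm38 genome. Every member that passed the filter was counted in every comparison, but values of single members were printed for some comparisons only. Other genes came from the lists of signalling, ligand, regulator, NK gene complex and marker genes. Some of those called were named, together with Tyrobp, Hcst, Ptpn6 and Ptpn11, and by likeness the 5 genes with the highest r. Members and lists were chosen with earlier results of these data known. PCR reads are not independent molecules, and intervals cover counting error only. The statistics were tested on simulated data. ATAC libraries and cells of other genotypes were not used here.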

Additional observations from a re-analysis of the deposited data

How the results depend on the processing

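Of 208 counts of called members under alternatives, 176 stayed within 1.5 times the main count. Most of the 208 come from comparisons whose main count was 0, where a repeated 0 counts as unchanged. Of 1836 fold changes of single members, 1755 kept their side of the threshold, 52 lost the call, 29 gained one and 0 reversed after a call. A change that was called in neither fit could differ in sign and still count among the 1755. Most of the 1836 also come from comparisons without a call in the main fit. Neither total therefore measures how stable the calls were. In trNK-T against trNK-V every other setting called 6 members, and omission of a library gave 4 to 7. In trNK-T against trNK-D the count was 5 with DESeq2 and with no filter, 1 with only the groups compared, 0 with edgeR's own filter, filterByExpr, and 0 to 0 on omission of a library. In trNK-D against trNK-V it was 2 with DESeq2 and with no filter, where 3.99% and 1.8% of all genes were called. In gd 6.5 against virgin it was 4 with DESeq2 and 3 with no filter, where 10.3% and 3.89% of all genes were called. It was 0 with total counts alone, filterByExpr or only the groups compared, where 6.97%, 0.0356% and 0% were. Omission of a library, which leaves 1 in a group, changed it too. In gd 8.5 against virgin it was 1 with DESeq2 and 2 with no filter, where 3.64% and 2.13% of all genes were called, and it also changed on omission. At 72 h against 0 h it was 3 with total counts alone, 4 with only the groups compared and 3 to 6 on omission. For IL-21 it was 1 at 24 h with only the groups compared and 0 to 1 at 72 h on omission, and for iSTAT3 against IL-21 it was 1 with DESeq2. The share of all genes called changed with the setting too, and counts printed without it are not read as results about the members. Causes were not tested.

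Correlations between the deviations of same-numbered libraries ran from -0.51 to 0.60 between pairs of groups. Some pairs were above 0.1, but in no experiment were all of them, so the numbers were not taken to pair the samples. With the replicate block the count was 0 in gd 6.5 against virgin, 1 in trNK-D against trNK-V and 6 at 72 h against 0 h. In the same order, 0.0444%, 0.534% and 24.9% of all genes were called.

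In single cells, summed CPM in virginal-like trNK was 3810 without the upper limit on genes and 4144 with 3000 variable genes. In terminal-like trNK it was 2935 with limits on UMIs, 1166 without the upper limit, 1296 at resolution 0.4 and 746.5 with 3000 variable genes, and in cNK-like cells 4280, 3883, 4054 and 4065. The share with 2 or more members was 81.96% without thinning, 60.03% without the upper limit and 59.54% with 3000 variable genes in virginal-like trNK, 35.18%, 24.39% and 13.09% in terminal-like trNK, there also 42.93% with limits on UMIs and 23.83% at resolution 0.4, and 70.13% without thinning in cNK-like cells. With limits on UMIs no virginal-like class was found, so that no value was obtained. With 2 libraries a group, and reads that near-identical genes share, small changes of low members such as Klra6 and Klra10 are poorly resolved.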

Other observations

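In the pooled single cells, 344 T-like cells had Klra1 at 170 CPM (exact 95% interval 141.5 to 202.5) where B-like cells had 9.53 CPM. Klra5, Klra3 and Klra7 were also higher, at 55.8, 68 and 193 CPM in T-like against 9.53, 38.1 and 132 CPM in B-like cells. Klra8 and Klra4 stood at 199.9 and 117 CPM in T-like cells against 189 and 125.5 CPM in B-like cells. The T-like cells were then divided by their co-receptors, a division made after the value of Klra1 was seen. The 137 cells with neither a Cd4 nor a Cd8 UMI had Klra1 at 357 CPM, with a UMI in 21.9% of cells, and Klra7 at 331 CPM, in 27.0% of cells. The 108 cells with a Cd8a or Cd8b1 UMI had Klra1 at 19.3 CPM, in 1.85% of cells, and the 99 cells with a Cd4 UMI and no Cd8 UMI had it at 116 CPM, in 4.04% of cells. The median depths of the 3 groups were 1911, 2260 and 1886 UMIs. A missing co-receptor UMI does not show that a cell lacks the protein, doublets were not removed, and the cells come from a sort for NK1.1 and NKp46.

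In virginal-like trNK the pseudogene Klra13-ps stood at 797 CPM and was seen in 47.4% of cells at 1000 UMIs, a level between those of Klra7 and Klra3, and in terminal-like trNK at 44.99 CPM, in 4.83% of cells. Klra14-ps stood at 56.5 and 4.40 CPM in these classes. B-like cells had 141 CPM of Klra13-ps and 1.59 CPM of Klra14-ps, the latter from 1 UMI.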
